A study of Mus musculus with 3 samples.

Results

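The 10 genes described here encode receptors and coreceptors of the TGF-β family, namely the type I receptors *Tgfbr1*, *Acvr1*, *Acvr1b* and *Bmpr1a*, the type II receptors *Tgfbr2*, *Acvr2a*, *Acvr2b* and *Bmpr2*, and the coreceptors *Tgfbr3* and *Eng*. They were taken by symbol from the 15554 rows of a table of gene expression, and each symbol occupied a single row. The mean FPKM (fragments scaled to transcript length in kilobases and to 1e6 mapped fragments) over the libraries was at least 1 for 9 of the 10 members and for 9226 rows in all. The exception was *Eng*. The cells were NIH3T3, an established line of mouse embryonic fibroblasts. All cultures were first kept in serum-free medium (IMDM) for 24 h and then for another 24 h in serum-free medium alone (CTRL), with 100 ng/mL GDF15 or with 4 ng/mL TGF-β. RNA was pooled within each treatment and 1 library was sequenced per treatment, 3 in all, so differences below have no replicate check and carry no p-values. The data therefore describe 1 cell line at 1 dose of each ligand, and a difference between libraries cannot be told apart from a difference between the pooled cultures. As these are bulk samples, fewer cells that express a gene and less of its RNA per cell cannot be told apart either.

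Ligands of the TGF-β family bring together pairs of type II and type I receptors, which are transmembrane kinases. The type II receptor binds ligand and phosphorylates the type I receptor in a stretch rich in glycine and serine next to its kinase domain (the GS box), and the type I receptor then phosphorylates Smad proteins. The receptor encoded by *Tgfbr1* acts with that of *Tgfbr2* for TGF-β, those of *Acvr1b*, *Acvr2a* and *Acvr2b* serve activins, and those of *Bmpr1a*, *Acvr1* and *Bmpr2* serve bone morphogenetic proteins (BMPs). The coreceptors betaglycan (*Tgfbr3*) and endoglin (*Eng*) bind ligand at the cell surface and have no kinase of their own. GDF15 is a distant member of this family, and the libraries were made to compare the responses of fibroblasts to both ligands.

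The coding sequence of the GS box shows what separates type I receptors from the other members, and how unlike the members are at the level of reads. A search of the translated longest coding transcript of each member for the alternating serine and glycine repeat found it once in each of the 4 type I receptors and in 0 of the 4 type II receptors and 0 of the 2 coreceptors. The 48 bases around it are given below from GENCODE M21 (GRCm38), with the repeat in capitals.
Tgfbr1: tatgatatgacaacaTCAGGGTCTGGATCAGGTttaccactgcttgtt
Acvr1b: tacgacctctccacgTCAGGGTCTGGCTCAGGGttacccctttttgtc
Acvr1: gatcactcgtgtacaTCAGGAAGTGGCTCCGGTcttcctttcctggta
Bmpr1a: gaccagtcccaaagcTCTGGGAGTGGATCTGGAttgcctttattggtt
These stretches start at base 634 (*Tgfbr1*), 628 (*Acvr1b*), 1218 (*Acvr1*) and 1178 (*Bmpr1a*) of their transcripts. *Tgfbr1* and *Acvr1b* were identical at 35 of the 48 bases, *Acvr1* and *Bmpr1a* at 30, and the other 4 pairs at 26 to 28. The reads were 50 bases long, and 0 of the 50-base words of any member's coding transcripts occurred in another member. No error-free read could therefore match more than 1 member.

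Words shared with genes outside the family were few. They made up 7.04% of the 50-base words of *Acvr2a*, all of them in *Orc4*, whose exons share 446 bases with *Acvr2a* on the opposite strand. The FPKM of *Orc4* was 5.99 (CTRL), 5.68 (GDF15) and 6.70 (TGF-β), and whether strand was used in counting is not stated in the sources used here. For *Tgfbr3* the share was 3.99% and for *Bmpr1a* 3.77%, in both cases with a gene of an uncharacterised transcript. These were *Gm43422*, on the same strand as *Tgfbr3*, and *Gm17110*, whose exons share 290 bases with *Bmpr1a* on the opposite strand. The share was 1.23% for *Tgfbr2*, spread over 326 other genes, 0.321% for *Eng* (with *Fpgs* on the opposite strand), 0.0156% for *Tgfbr1* and 0 for *Acvr1*, *Acvr1b*, *Acvr2b* and *Bmpr2*.

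Sequencing depth, estimated from the steps of single fragments in low FPKM values, was, in units of 1e6 fragments, 16.8 (CTRL), 19.6 (GDF15) and 16.0 (TGF-β). At this depth, and with the longest coding transcript as length, the members other than *Eng* rested on an estimated 139 to 5938 fragments per library and *Eng* on 41.8 to 54.7. The intervals given below are 95% counting intervals of the ratio of 2 libraries (exact binomial, from these estimated fragments). They cover counting error only and compare libraries, not treatments. Of 10 fibroblast markers, 9 reached a mean FPKM of 1, whereas *Lum* was listed at 0 in CTRL and GDF15. Their summed FPKM was 12620, 16379 and 14397 in the order CTRL, GDF15, TGF-β, which is the order of all FPKM triples below. *Fn1* (3738, 5815 and 5385), *Col1a1* (1103, 1669 and 1902) and *Col1a2* (1233, 1841 and 1948) were higher in both stimulated libraries. *Pdgfra* (61.3, 61.3 and 35.05) and *Dcn* (419, 408 and 249) were lower in TGF-β. The part of these markers in the results below was not tested. None of 8 endothelial markers reached a mean FPKM of 1, and their summed FPKM was 0.401 to 0.409, with *Emcn* and *Cldn5* listed at 0 in every library and *Tek* highest on average over the libraries (0.0840, 0.154 and 0.189). The summed FPKM was 0.268 to 0.735 for 6 epithelial markers, of which *Cdh1* was highest and *Epcam* and *Cldn4* were at 0. It was 1.37 to 1.86 for 6 immune markers, mostly *Cd68* (1.66, 1.14 and 1.67), and 0.696 to 0.816 for 5 mural markers, led by *Myh11*.

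*Tgfbr3* was the most abundant member in every library, and *Eng* the least abundant. In CTRL, the FPKM of *Tgfbr3* was 45.7, higher than that of 92.0% of all rows, and was followed by a group of *Acvr1* (17.1), *Bmpr1a* (16.5), *Bmpr2* (16.2) and *Tgfbr2* (14.4). *Acvr1b* (6.38), *Tgfbr1* (5.08), *Acvr2a* (3.60) and *Acvr2b* (3.49) were lower, and *Eng* was at 0.951. Within CTRL, the neighbours *Acvr1* and *Bmpr1a*, *Bmpr1a* and *Bmpr2*, and *Acvr2a* and *Acvr2b* did not differ beyond counting error, whereas the other neighbours in this order did. Comparisons between genes rest on the length of the longest coding transcript, and counting error does not cover an error in that length. The receptors named for TGF-β were unequal, with *Tgfbr2* at 2.82 times the level of *Tgfbr1*. In GDF15 and TGF-β, *Bmpr1a* and *Bmpr2* stood above *Acvr1*, and *Tgfbr1* above *Acvr1b*, although in TGF-β neither *Bmpr2* and *Acvr1* nor *Tgfbr1* and *Acvr1b* differed beyond counting error.

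**Figure D1:**
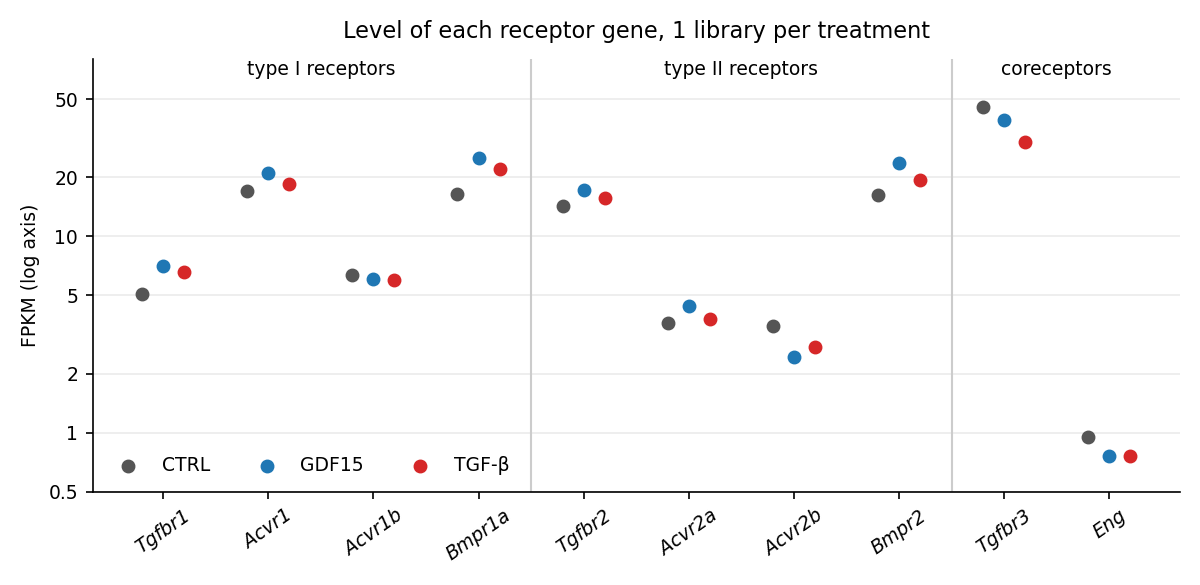
FPKM of the 10 members (log axis) in the CTRL, GDF15 and TGF-β libraries, 1 point per library and with no error bars because each treatment has 1 library. *Tgfbr3* is highest in every library (45.7, 39.1 and 30.2) and *Eng* lowest, and 6 of the 8 kinase receptors have their lowest point in CTRL.

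Among type I receptors, *Bmpr1a* differed most from CTRL. *Bmpr1a* (chromosome 14 of GRCm38, 34410734 to 34503341, minus strand) encodes a BMP receptor, also called ALK3. Its FPKM was 16.5 (CTRL), 24.9 (GDF15) and 22.0 (TGF-β). CTRL was lowest and GDF15 highest. The ratio to CTRL was 1.51 for GDF15 (counting interval 1.42 to 1.61) and 1.34 for TGF-β (1.25 to 1.43). On the log2(FPKM + 1) scale, which understates the change of low genes, the differences were 0.57 and 0.40.

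*Tgfbr1* (chromosome 4, 47353222 to 47414931, plus strand) encodes the type I receptor for TGF-β itself. Its FPKM was 5.08 (CTRL), 7.04 (GDF15) and 6.56 (TGF-β), so both stimulated libraries lay above CTRL and close to each other. The ratio to CTRL was 1.39 (1.24 to 1.56) for GDF15 and 1.29 (1.15 to 1.46) for TGF-β. The differences on the log2(FPKM + 1) scale were 0.40 and 0.31, and 0.21 and 0.22 once the trends with length and GC content described below had been removed. *Acvr1* (chromosome 2, 58388644 to 58567157, minus strand), the BMP receptor ALK2, was at 17.1, 21.01 and 18.6. It was higher in GDF15 by a ratio of 1.23 (1.13 to 1.34), while the interval of TGF-β to CTRL, 0.993 to 1.19, held 1. *Acvr1b* (chromosome 15, 101174067 to 101213684, plus strand), the activin receptor ALK4, had an FPKM of 6.38, 6.10 and 5.98. Both of its intervals held 1 (0.843 to 1.08 for GDF15 and 0.821 to 1.07 for TGF-β).

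Among type II receptors, *Bmpr2* stood highest and was highest in GDF15. *Bmpr2* (chromosome 1, 59763400 to 59879014, plus strand) encodes the type II receptor for BMPs, and its annotated transcript of 12899 bases is the longest of the members. Its FPKM was 16.2 (CTRL), 23.5 (GDF15) and 19.3 (TGF-β), with all 3 values apart from each other. The ratio to CTRL was 1.45 (1.39 to 1.51) for GDF15 and 1.19 (1.14 to 1.25) for TGF-β, and the differences on the log2(FPKM + 1) scale were 0.51 and 0.24. Without a trend with length they were 0.34 and 0.19, and without those with length and GC content 0.27 and 0.12.

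*Tgfbr2* (chromosome 9, 116084293 to 116175360, minus strand), the type II receptor that binds TGF-β, had an FPKM of 14.4 (CTRL), 17.2 (GDF15) and 15.7 (TGF-β). The ratio was 1.20 (1.13 to 1.27) for GDF15 and 1.09 (1.03 to 1.16) for TGF-β. Its difference from CTRL with GDF15 was 0.25 on the log2(FPKM + 1) scale, and 0.093 without a trend with length. The activin type II receptors were low. *Acvr2a* (chromosome 2, 48814109 to 48903269, plus strand) had an FPKM of 3.60, 4.42 and 3.78, and its ratio to CTRL was 1.23 (1.07 to 1.41) for GDF15 and 1.05 (0.901 to 1.22) for TGF-β. Its difference from CTRL on the log2(FPKM + 1) scale was 0.23 with GDF15, but 0.16 once a trend with length (described below) had been removed and 0.034 once those with length and GC content had been. *Acvr2b* (chromosome 9, 119402118 to 119434995, plus strand) had an FPKM of 3.49, 2.42 and 2.73, and its ratio was 0.692 (0.554 to 0.863) and 0.781 (0.625 to 0.982). *Acvr2b* was the only kinase receptor whose intervals lay below 1 for both stimuli, and CTRL was its highest library. The differences of *Acvr2b* on the log2(FPKM + 1) scale were -0.40 with GDF15 and -0.27 with TGF-β. Without the trends with length and GC content they were -0.29 and -0.14. The FPKM of *Acvr2a* was 1.03 times that of *Acvr2b* in CTRL, 1.83 times in GDF15 and 1.39 times in TGF-β.

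Among coreceptors, *Tgfbr3* was lower in both stimulated libraries. *Tgfbr3* (chromosome 5, 107106570 to 107289629, minus strand) encodes betaglycan, a proteoglycan that presents ligand to the type II receptor and can also be shed from the surface. Its FPKM was 45.7 (CTRL), 39.1 (GDF15) and 30.2 (TGF-β), with TGF-β lowest. The ratio to CTRL was 0.855 (0.821 to 0.891) for GDF15 and 0.661 (0.631 to 0.692) for TGF-β. The difference from CTRL on the log2(FPKM + 1) scale was -0.58 with TGF-β and -0.22 with GDF15. *Eng* (chromosome 2, 32646595 to 32682669, plus strand), which encodes a coreceptor best known from endothelial cells, had an FPKM of 0.951, 0.757 and 0.764. Its intervals were wide and held 1 for GDF15 (0.533 to 1.19) and for TGF-β (0.523 to 1.22), so a difference of *Eng* was not detectable at this depth.

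**Figure D2:**
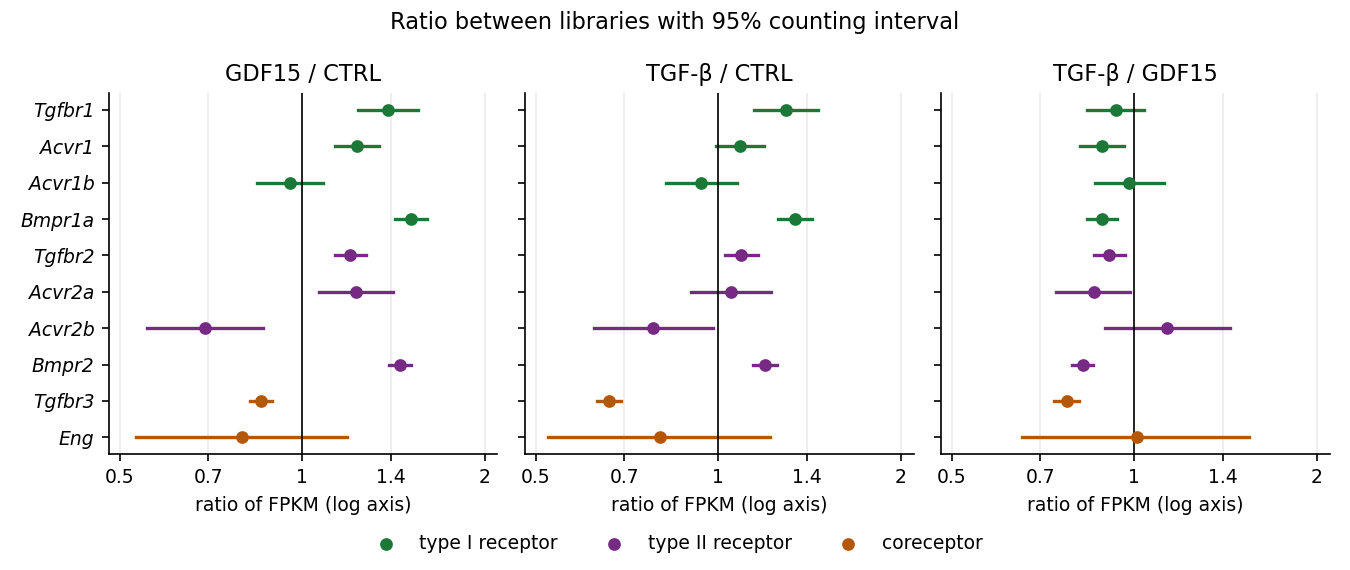
Ratio of FPKM between libraries (log axis) for each member, with horizontal bars for the 95% counting interval and colours for type I receptors, type II receptors and coreceptors. *Bmpr1a* and *Bmpr2* lie furthest to the right for GDF15 (1.51 and 1.45), *Tgfbr3* furthest to the left for TGF-β (0.661), and the bars of *Eng* cross 1 in every panel.

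None of the 10 members differed more than 2-fold from CTRL on the log2(FPKM + 1) scale, which was chosen here, either with GDF15 or with TGF-β. Of all 15554 rows, 0.289% did with GDF15 and 0.913% with TGF-β. For scale, 4 of 6 listed response genes of TGF-β did so with each stimulus, namely *Ctgf* (9.03, 41.3 and 77.3), *Acta2* (20.4, 73.6 and 96.1), *Tagln* (2.20, 8.27 and 13.8) and *Skil* (2.45, 6.07 and 8.86), an inhibitor of Smads that TGF-β induces. The listed response genes *Tgfbi* (83.05, 89.4 and 83.2) and *Col1a1* (1103, 1669 and 1902) did not. *Eng*, with an FPKM under 1 in every library, could not differ more than 2-fold on this scale. A smaller size was also used. The local spread of a gene is a robust SD (scaled from the median absolute deviation) of the changes of genes with similar mean expression, and a gene was called when its change, less the median of those genes, was past 2 local spreads. With GDF15, *Bmpr1a* (2.62 local spreads), *Bmpr2* (2.61) and *Tgfbr1* (2.01) were called higher and 0 members lower, 3 of the 9 members with a mean FPKM of at least 1 against 6.76% of all such genes (3.57% higher and 3.2% lower). The closest member outside was *Acvr2b*, at -1.86. Without the length trend, 1 of 9 was called (*Bmpr1a*), against 6.97% of genes, and without the length and GC trends 1 higher (*Bmpr1a*) and 1 lower (*Tgfbr3*), against 8.43%. With TGF-β, *Bmpr1a* (2.15) was called higher and *Tgfbr3* (-2.27) lower, 2 of 9 members against 9.8% of genes (5.56% higher and 4.24% lower). *Tgfbr1* followed at 1.73. Without the length trend, and without the length and GC trends, *Tgfbr3* alone was called with TGF-β, against 10.2% and 11.1% of genes. *Bmpr1a* was then at 1.96 and 1.68 local spreads, with a change of 0.39 and 0.31 against 0.40 as reported.

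The counting intervals excluded 1 for more members. With GDF15 they lay above 1 for 6 members and below for 2, and with TGF-β above for 4 and below for 2. Of all genes of known length that reached a mean FPKM of 1, 52.5% had an interval without 1 with GDF15 (22.8% above and 29.7% below) and 53.9% with TGF-β (17.9% above and 36% below), so such intervals are common in these libraries. The median change of the 10 members was 0.24 with GDF15 and 0.08 with TGF-β, against -0.03 and -0.07 over all genes at or above a mean FPKM of 1. The median with GDF15 was 0.12 once the length trend had been removed and 0.086 once those with length and GC content had been. With TGF-β it was 0.079 and 0.067. Both comparisons share the CTRL library.

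The stimulated libraries can be compared without CTRL. *Tgfbr3* was lower in TGF-β than in GDF15 by a ratio of 0.773 (0.738 to 0.810), or -2.36 local spreads, and was the only member past 2 local spreads in this comparison, in which 9.03% of genes were called (5.29% higher and 3.74% lower). *Bmpr2* followed, with a ratio of 0.822 (0.790 to 0.856) and -1.55 local spreads. *Bmpr1a* (0.884), *Acvr1* (0.883), *Tgfbr2* (0.910) and *Acvr2a* (0.856) were also lower in TGF-β, with intervals below 1. This comparison too differed with transcript length, with a median change of -0.10 over the 1916 genes of 5000 bases and over. Once the length trend had been removed, the difference on the log2(FPKM + 1) scale was -0.15 in place of -0.27 for *Bmpr2*, -0.081 in place of -0.17 for *Bmpr1a*, -0.023 in place of -0.13 for *Tgfbr2* and -0.095 in place of -0.18 for *Acvr2a*. For *Tgfbr3* it was -0.26 in place of -0.36, or -2.11 local spreads, and -2.02 without the length and GC trends. The intervals of *Tgfbr1* (0.837 to 1.04), *Acvr1b*, *Acvr2b* and *Eng* held 1. Over all genes, 40.4% had an interval without 1 (14% above and 26.5% below). None of the members differed more than 2-fold between the stimulated libraries, as 0.103% of rows did. In 6 kinase receptors (*Tgfbr1*, *Acvr1*, *Bmpr1a*, *Tgfbr2*, *Acvr2a* and *Bmpr2*) CTRL was lowest and GDF15 highest, an order held by 16.3% of genes at or above a mean FPKM of 1 and by 34.7% of those with transcripts of 5000 bases and over.

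These differences altered the proportions of the family. Summed FPKM, which weighs genes by number of transcripts rather than by fragments, was 45.0 for type I receptors (CTRL), 59.1 (GDF15) and 53.1 (TGF-β). For type II receptors it was 37.7, 47.6 and 41.5, and for coreceptors 46.7, 39.9 and 31.0. The sums of the kinase receptors were higher in both stimulated libraries, although *Acvr1b* and *Acvr2b* were not. The coreceptor sum was 97.5% to 98.1% *Tgfbr3*, and its values are those of this gene. The share of *Tgfbr3* in the sum of all 10 members was 35.4% (CTRL), 26.7% (GDF15) and 24.1% (TGF-β). *Tgfbr3* was 9.001 times as abundant as *Tgfbr1* in CTRL, 5.55 times in GDF15 and 4.61 times in TGF-β. The ratio of *Tgfbr3* to *Tgfbr2* was 3.19, 2.27 and 1.93 in the same order, and that of *Tgfbr2* to *Tgfbr1* was 2.82, 2.45 and 2.39. The ratio of *Bmpr2* to *Bmpr1a* was 0.984, 0.943 and 0.877. These ratios are taken within a library and do not depend on its scaling.

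**Figure D3:**
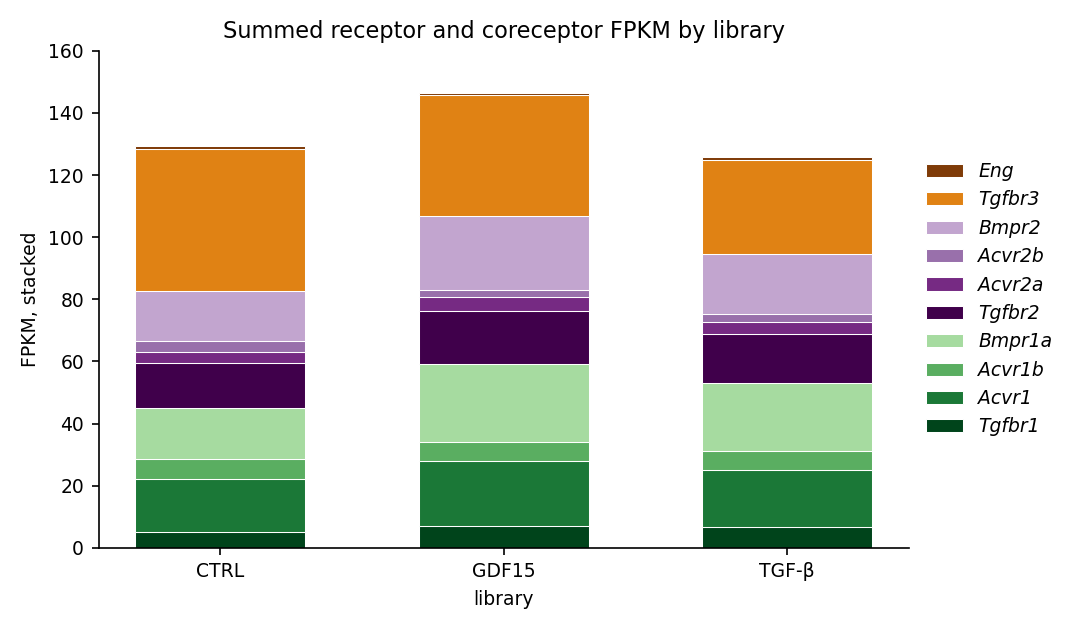
FPKM of the 10 members stacked by library, with type I receptors in green, type II receptors in purple and coreceptors in orange and brown. The orange part, *Tgfbr3*, is 45.7 in CTRL and 30.2 in TGF-β, while the green part grows from 45.0 to 59.1 in GDF15 and 53.1 in TGF-β.

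Changes in these libraries differed with transcript length, and most members are long. The longest coding transcript was 5000 bases or more for 6 of the 9 members with a mean FPKM of at least 1, and 3' untranslated sequence made up 61.2% to 75.2% of it in *Tgfbr1*, *Acvr1b*, *Bmpr1a*, *Tgfbr2*, *Acvr2a* and *Bmpr2*. Over all genes at this level, the median change with GDF15 was 0.11 for 1916 genes of 5000 bases and over and -0.07 for 7277 shorter genes. With TGF-β it was 0.01 and -0.10. The 6 long members had medians of 0.33 and 0.18. *Bmpr1a* (5956 bases) and *Tgfbr1* (5756 bases) exceeded the running median at their length by 0.48 and 0.31 with GDF15 and by 0.39 and 0.33 with TGF-β. For *Bmpr2*, whose transcript is longer than that of 99.4% of these genes, the excess was 0.34 and 0.19, and for *Tgfbr2* it was 0.09 and 0.08.

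*Tgfbr3* and *Acvr2b* lay below the trend with both stimuli. *Tgfbr3* (6087 bases) lay below the running median at its length by 0.32 with GDF15 and by 0.60 with TGF-β, and *Acvr2b* (3175 bases) by 0.35 and 0.18. With the length trend removed from all genes, *Bmpr1a* was the 1 member past 2 local spreads with GDF15 (1 of 9 against 6.97% of genes), and *Tgfbr3* the 1 member with TGF-β (1 of 9 against 10.2%). *Tgfbr1* and *Bmpr2* with GDF15 and *Bmpr1a* with TGF-β were then no longer called, and *Tgfbr1* with GDF15, which had passed by a small margin (2.01), was also not called after removal of the trend with expression, although its change was then 0.41 against 0.40 as reported.

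**Figure D4:**
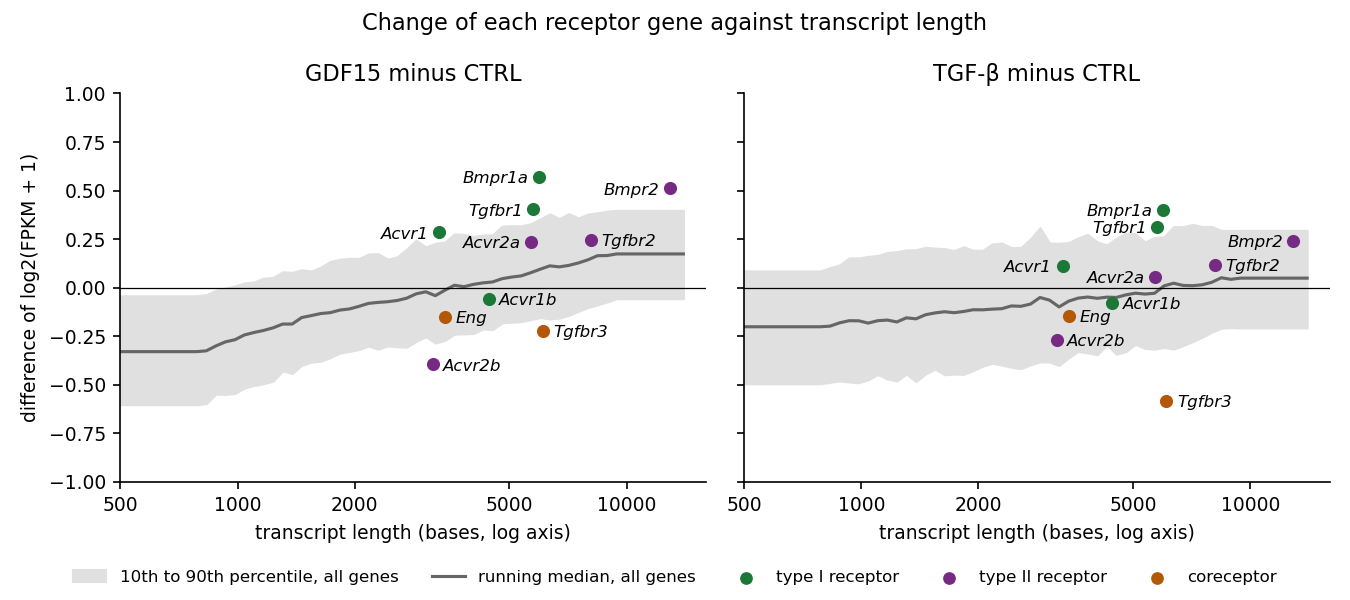
Difference of log2(FPKM + 1) between each stimulated library and CTRL (vertical) against the length of the longest coding transcript (log axis), with the running median (line) and the 10th to 90th percentile (grey) of genes at or above a mean FPKM of 1. The line climbs with length, *Bmpr1a* lies above the grey band in both panels (0.57 and 0.40), and *Tgfbr3* lies below it (-0.22 and -0.58).

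*Tgfbr1*, *Bmpr1a* and *Bmpr2* were called higher with GDF15 as reported, and only *Bmpr1a* was still called without the length trend. *Acvr1*, *Tgfbr2* and *Acvr2a* also had CTRL lowest and GDF15 highest but were not called. The promoters of the 3 called members are shown. They are RefSeq windows of 250 bases before to 50 after the start (GRCm38.p6), at chr4:47352972-47353271 (plus strand) for *Tgfbr1*, chr14:34502497-34502796 (minus strand) for *Bmpr1a* and chr1:59764029-59764328 (plus strand) for *Bmpr2*. Those of *Bmpr1a* and *Bmpr2* lie inside the GENCODE M21 genes given above, so their starts differ from the outermost start of that annotation. Capitals mark GGGCGG on either strand (the GC box, which can bind Sp1).
Tgfbr1: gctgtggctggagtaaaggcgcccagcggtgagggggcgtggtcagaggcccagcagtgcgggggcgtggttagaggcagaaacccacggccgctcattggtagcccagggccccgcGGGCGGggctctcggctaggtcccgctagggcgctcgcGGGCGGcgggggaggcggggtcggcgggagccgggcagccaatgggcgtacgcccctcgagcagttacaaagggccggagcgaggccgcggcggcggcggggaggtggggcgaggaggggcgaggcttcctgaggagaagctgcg
Bmpr1a: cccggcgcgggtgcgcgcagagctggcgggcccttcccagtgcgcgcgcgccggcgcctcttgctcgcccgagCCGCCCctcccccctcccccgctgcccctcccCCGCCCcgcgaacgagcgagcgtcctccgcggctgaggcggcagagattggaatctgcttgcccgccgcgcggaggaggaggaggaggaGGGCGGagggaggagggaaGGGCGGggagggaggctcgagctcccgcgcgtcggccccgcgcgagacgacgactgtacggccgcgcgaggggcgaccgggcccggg
Bmpr2: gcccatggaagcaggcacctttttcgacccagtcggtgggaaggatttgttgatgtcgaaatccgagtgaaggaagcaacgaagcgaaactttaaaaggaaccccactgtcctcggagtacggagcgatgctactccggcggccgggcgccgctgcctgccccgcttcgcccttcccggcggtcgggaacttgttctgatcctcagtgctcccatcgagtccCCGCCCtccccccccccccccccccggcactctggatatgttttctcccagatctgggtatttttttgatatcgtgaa
The GC box occurred 2 times in *Tgfbr1*, 4 times in *Bmpr1a* and 1 time in *Bmpr2*. Of the members, 9 matched the promoter table by symbol, with 10 windows because *Tgfbr1* has 2 starts. The GC box was in 7 of these 10 windows and in 35.7% of all 32851 windows. TATAAA was in 0 of 10 (13.6% of all windows), CAGACA, a sequence that Smad proteins can bind, in 1 of 10 (21%, at the other start of *Tgfbr1*, chr4:47385966-47386265, not shown), and the palindrome GTCTAGAC in 0 of 10 (0.213%), each searched on both strands. The GC content of the members' windows ran from 52.0% to 83.7%, with a median of 52.7% over all windows. A match of letters is a description of the window only.

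The other receptors listed had low FPKM. *Bmpr1b* was listed at 0 in every library. *Acvrl1*, the endothelial type I receptor, and *Acvr1c* had an FPKM of 0.0156 and 0.00631 in CTRL, and each corresponded to an estimated single fragment in every library (0.954 and 0.972). *Amhr2*, the receptor for anti-Müllerian hormone, was highest of them at 0.582, 0.683 and 0.482. *Gfral*, known as the receptor for GDF15 in the brainstem, had an FPKM of 0.142 (CTRL), 0.195 (GDF15) and 0.0895 (TGF-β), which corresponds to an estimated 4.97, 7.95 and 2.98 fragments. Its intervals held 1 (0.396 to 5.33 for GDF15 to CTRL). *Ret*, the kinase with which it acts, was at an estimated 1.37 fragments in CTRL and listed at 0 in the other libraries. None of these 6 receptors reached an FPKM of 1 in any library, so none could differ more than 2-fold on the log2(FPKM + 1) scale.

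Among other coreceptors, *Rgma* and *Rgmb* were lower in both stimulated libraries, and *Nrp1* was higher with GDF15. Of 10 listed, 9 were in the table and 5 had a mean FPKM of at least 1. *Rgmb*, a BMP coreceptor of the repulsive guidance molecule family, had an FPKM of 40.1 (CTRL), 30.6 (GDF15) and 21.9 (TGF-β). Its ratio to CTRL was 0.763 (0.728 to 0.799) and 0.548 (0.519 to 0.578), and it was called lower with TGF-β at -4.10 local spreads. With GDF15 it was at -1.47 local spreads, but at -2.55 without the length trend and -2.94 without the length and GC trends. *Rgma*, of the same family, had an FPKM of 89.97, 75.1 and 63.2, and its ratio to CTRL with GDF15 was 0.835 (0.804 to 0.868). With TGF-β *Rgma* was at -2.00 local spreads, just past the criterion. It was at -2.48 without the length trend and -1.94 without the length and GC trends. The neuropilin *Nrp1* had an FPKM of 6.23, 8.97 and 6.84 and was called higher with GDF15 (2.24), while *Nrp2* was at 27.6, 26.5 and 22.7. *Cd109*, which binds TGF-β and restrains its signalling, was at 77.3, 105 and 95.6 and lay just short of the criterion with GDF15 (1.98). The decoy receptor *Bambi* had an FPKM of 0.298, 0.241 and 0.220.

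Of 22 listed regulators of the receptors, 20 were in the table with a mean FPKM of at least 1. With GDF15, *Pmepa1*, *Smad6* and *Smurf2* were called higher and 0 lower, 3 of 20 against 3.57% of all genes called higher. With TGF-β, *Pmepa1*, *Smad6* and *Smad7* were called higher and 0 lower, 3 of 20 against 5.56%. *Smad6* (0.714 in CTRL) reached a mean FPKM of 1 only through the stimulated libraries, so neither count can be read against the share of all genes. *Pmepa1*, which keeps Smads from the receptors, had an FPKM of 1.53 (CTRL), 5.83 (GDF15) and 11.2 (TGF-β) and was the 1 gene of the list over 2-fold on the log2(FPKM + 1) scale. *Smad6*, an inhibitory Smad, was at 0.714, 1.31 and 1.44 (2.07 and 2.08 local spreads), and its ratio of FPKM in TGF-β to CTRL was 2.01. *Smad7*, the inhibitory Smad that directs TGF-β receptors to degradation, was at 2.58, 3.28 and 4.36, with 1.20 local spreads for GDF15 and 2.75 for TGF-β. The ubiquitin ligase *Smurf2*, a partner of Smad7, was at 12.7, 16.8 and 14.1, with 2.03 local spreads for GDF15 and 1.09 for TGF-β. With GDF15 *Smurf2* fell just short of the criterion without the length trend (1.98, with a change of 0.33 against 0.38). Without the length and GC trends it was past the criterion again (2.16). The highest gene of this list was *Cav1* (145.8, 179 and 195), a caveolin with which TGF-β receptors are taken up.

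Proteases that can shed receptors were examined as well. *Mmp14*, which can cleave betaglycan and endoglin, had an FPKM of 238 (CTRL), 214 (GDF15) and 164 (TGF-β), and *Adam17* was at 20.3, 20.04 and 16.8. Neither was called against CTRL, and *Mmp14* was at -2.55 local spreads in TGF-β against GDF15. *Adam10* (29.8, 40.7 and 36.0) was called higher with GDF15 (2.39 local spreads), and *Timp3*, an inhibitor of such proteases, was at 161, 244 and 254 and was called higher with both stimuli (2.40 and 2.59). The 5 Smads that transmit the signal and reached a mean FPKM of 1 had median changes of 0.15 with GDF15 and 0.11 with TGF-β, and 0 of 5 were called, a list too short to be read against the 6.76% and 9.8% of all genes. The highest of them was *Smad4*, the partner shared by all branches, at 24.8, 27.6 and 25.7.

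Of 33 ligand genes, 16 were listed at 0 in every library and 5 had a mean FPKM of at least 1. *Tgfb1* was highest, at 28.7, 23.1 and 26.2, followed by *Tgfb3* at 20.9, 21.1 and 19.98. *Inha*, the inhibin alpha subunit, was at 15.1, 9.31 and 11.6 and was called lower with GDF15 (-2.85 local spreads). *Inhba*, the subunit of activin A, was at 3.95, 6.01 and 4.82 and was called higher with GDF15 (2.34). Their transcripts differ in length (1475 bases for *Inha* and 6390 for *Inhba*), and the running median of all genes with GDF15 was -0.15 and 0.11 near these lengths. Without the length trend *Inha* was at -2.47 local spreads. *Inhba* was at 1.98, just short of the criterion, with a change of 0.39 against 0.50 as reported. *Gdf11*, a ligand of activin type II receptors, was at 7.74, 5.07 and 4.49 and was called lower with both stimuli (-2.50 and -2.76). *Gdf15* itself had an FPKM of 0.121, 0.104 and 0.0636.

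**Figure D5:**
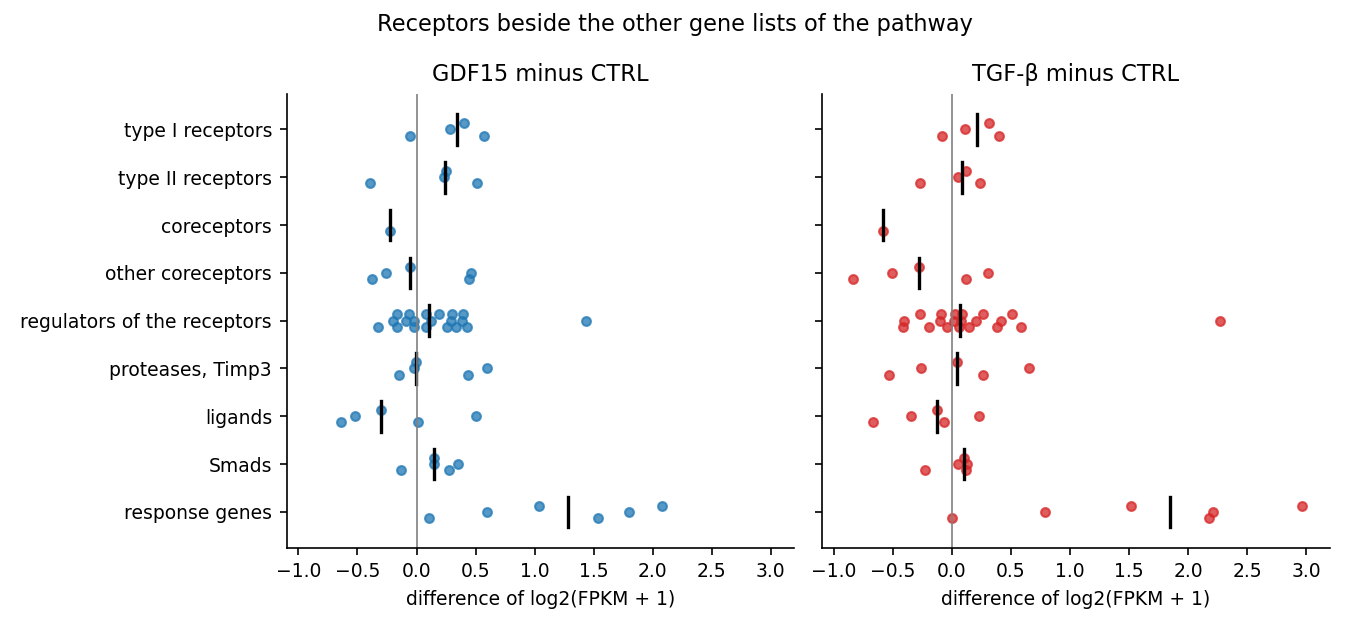
Difference of log2(FPKM + 1) between each stimulated library and CTRL for the members and the other gene lists of the pathway, 1 point per gene with a mean FPKM of at least 1 and a bar at the median of each list. The kinase receptors lie within 0.6 of 0 in both panels, and *Pmepa1* (1.43 and 2.27) lies apart from the other regulators.

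The genes whose pattern over the 3 libraries lay nearest to that of *Tgfbr3* and *Bmpr1a*, by Euclidean distance of centred log2(FPKM + 1) among genes within 2-fold of the mean FPKM, were as follows. For *Tgfbr3* (2621 genes searched) they were *Sepp1* (90.1, 77.4 and 59.6, at a distance of 0.00838), *Pik3r2* (50.7, 43.1 and 33.0) and *Irf1* (33.6, 28.8 and 21.8). For *Bmpr1a* (3892 genes searched) they were *Lnpep* (22.3, 33.1 and 29.8, at a distance of 0.0157), *Odz4* (11.03, 16.5 and 14.6) and *Trim59* (15.04, 21.8 and 19.6). The measure rests on 3 libraries and says nothing of shared function.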

How the data were processed

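The authors prepared stranded mRNA libraries from pooled RNA, sequenced them as 50-base single-end reads and deposited FPKM calculated with Cufflinks for protein coding genes reviewed in UniProt. The submitters' processing notes name TopHat 1.3.2, Bowtie 0.12.9, Cufflinks 2.0.2 and the build mm10. Whether counting used strand is not given in the sources used here. The members and gene lists were chosen with earlier results of these data known.

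Columns were matched to treatments by their names and the sample titles. Changes are differences of log2(FPKM + 1). Counts of fragments are estimates from FPKM, length and depth. The CTRL depth came from genes with a single transcript, and the depth of GDF15 (1.17 times CTRL) and TGF-β (0.953 times) from the commonest ratio of values under an FPKM of 0.1. Lengths, GC content and coordinates are from GENCODE M21 (GRCm38, the same build as mm10) and can differ from those the authors counted on. Of 15554 rows, 15473 matched, 748 of them by an older symbol. Trends with length are running medians over 501 genes and are held constant beyond the last window. *Lrrc32* and *Zfyve9*, which were listed among the coreceptors and regulators, were not analysed here. The genes named are the 10 members, other listed receptors and coreceptors with a mean FPKM of at least 1, listed genes over 2-fold or past 2 local spreads with either stimulus, the highest gene of each list, and the 3 nearest patterns of the 2 members that changed most with TGF-β and the 1 that changed most with GDF15. Other names were chosen after their values were seen (*Acvrl1*, *Acvr1c*, *Bmpr1b*, *Gfral*, *Ret*, *Bambi*, *Mmp14*, *Adam17*, *Tgfb3*, *Gdf15*, markers at 0 and overlapping genes).

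The alternatives were pseudocounts of 0.5 and 0.1 and none, a common upper quartile, removal of trends with expression, length, and length and GC content, a minimum mean FPKM of 5, and a local window of 201 genes. Python 3.11.15 was used with numpy 2.4.6, pandas 2.3.3, scipy 1.17.1, Biopython 1.88 and matplotlib 3.10.9.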

Additional observations from a re-analysis of the deposited data

How the results depend on the processing

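No paired analysis was possible because only 1 pooled library exists per treatment, so leaving a library out was not possible either. Under every alternative that applied to it, the number of members over 2-fold stayed at 0 with both stimuli. The median change of the members, 0.24 with GDF15, was 0.12 without the length trend, 0.086 without the length and GC trends and up to 0.28 otherwise. With TGF-β, 0.08 as reported, it was 0.14 with a common upper quartile, 0.16 without the expression trend and 0.067 to 0.095 otherwise.

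The number of members past 2 local spreads with GDF15, 3 as reported, was 2 after removal of the trend with expression (*Bmpr1a* and *Bmpr2*, with the change of *Tgfbr1* still at 0.41), against 6.82% of all genes. It was 1 after removal of the trend with length (*Bmpr1a*, against 6.97%), and 2 after removal of the trends with length and GC content (*Bmpr1a* higher and *Tgfbr3* lower, against 8.43%). With TGF-β, 2 as reported, it was 1 without the length trend and 1 without the length and GC trends (*Tgfbr3* in both, against 10.2% and 11.1% of genes, with the change of *Bmpr1a* at 0.39 and 0.31 against 0.40). The other alternatives left these counts as they were. For single members, 209 of 210 alternative values lay within 1 local spread of those reported, 1 did not (*Bmpr2* with GDF15, 0.27 after removal of the trends with length and GC content) and 0 called values reversed. However, 56 of the 210 were over 1.5 times larger or smaller or changed sign. The sign changed in 7 values, all of members that were not called (*Acvr1b*, *Acvr2a* and *Eng*). The cause of these shifts was not tested. Depth limits *Eng*, *Gfral* and the other receptors near 0.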
